A study of Mus musculus with 9 samples.

Results

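The 4 lymphomas described here came from Eμ-Myc mice without the Eμ-TTP-1 transgene, on a strain background of 94% C57BL/6. They are 4 of the 9 lymphomas of the series, chosen by genotype label and not by any measured value. The other 5 carried both Eμ-Myc and Eμ-TTP-1, on the same strain background, and are used here only to see whether the same genes varied among them; levels were not compared between the genotypes. Each tumour was hybridised to 1 Affymetrix MOE430 2.0 array. The labels call the samples biological replicates and give no sex, age or site of the tumours. Aliquots of whole lymphoma were homogenised, so the RNA includes that of host cells in the tumour. A lower signal from fewer cells of a type and from less RNA per cell cannot be told apart in such samples.

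In Eμ-Myc mice the enhancer of the immunoglobulin heavy chain locus drives the oncogene Myc in cells of the B lineage. MYC is a transcription factor that binds the E-box CACGTG with its partner MAX, and it is best known for raising ribosome production and cell growth. The tumours that arise are B-cell lymphomas that can stop at the precursor stage, in which RAG1 and RAG2 still cut immunoglobulin genes, or at a later stage with a surface receptor. They are as a rule clonal, so the immunoglobulin segments that a tumour expresses are mainly those that its founder cell had joined. Where RAG1 and RAG2 still cut, joining can go on after that cell.

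The E-box was looked for in RefSeq promoters (GRCm38.p6, from 250 bases before to 50 after each start), since the transgene's product binds it; the sequence reads alike on both strands. A gene was counted if any of its starts had the E-box. This held for 3 of the 25 of the 30 brightest genes that had a promoter in the table, and for 3 of 16 genes of the nucleolar list described below. Windows before the start of 4 such genes and of Lef1, the single match among the 21 of the 30 most variable genes that had a promoter in the table, are shown 5′ to 3′ with the E-box in capitals.
Nop2 (nucleolar methyltransferase, chr6:125131811-125131840, plus strand): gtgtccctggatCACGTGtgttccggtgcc
Rpl13a (large ribosomal subunit, chr7:45128928-45128957, minus strand): cgctccgaaaccCACGTGacatcccgcccc
Rps19 (small ribosomal subunit, chr7:24884781-24884810, plus strand): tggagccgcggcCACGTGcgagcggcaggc
Eif5a (translation factor, chr11:69921443-69921472, minus strand): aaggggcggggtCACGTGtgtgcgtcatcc
Lef1 (transcription factor of precursor lymphocytes, chr3:131156203-131156232, plus strand): gccttcatctctCACGTGaccgagattgca
Of genes with a promoter in the table, the E-box was found for 12% of the 30 brightest, 18.8% of the nucleolar list, 9.80% of the 200 most variable, 13.2% of all with a log2 mean over 8 and 8.09% of the whole table. A match describes the letters only and shows no binding.

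All levels below are log2 GCRMA intensities, with 1 probe set per gene; where 4 values follow each other they are those of replicates 1, 2, 3 and 4. A log2 level of 4, an intensity of 16, was taken as the limit of background, and a log2 mean over 8, an intensity of 256, as well expressed. Of 18193 genes, 7216 had a mean over 8, a share of 39.7% that stands beside the counts of list members over 8 below. Brightness depends on how well each probe set binds its target, so the order of genes by brightness is an order of probe sets and not of mRNA amounts. The arrays had median intensities of 12.2 to 13.3 and 47.6% to 48.6% of probe sets over 16. Over the 7216 genes, log2 values of 2 arrays correlated across genes with r of 0.859 to 0.927, and replicates 2 and 4 were the most alike, with 119 genes apart by 2 or more. Over the 4814 genes with a range of 1 or more, whatever their mean, replicates 1, 2, 3 and 4 were the highest in 26.9%, 17.7%, 28.3% and 27.1% and the lowest in 35.9%, 25.5%, 20.1% and 18.4%. These shares stand for all genes beside the counts of list members below.

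Replicate 4 stood apart through secretory genes that were at background in the other tumours. A set of 108 genes had a mean of 8 or less but a level over 10 in at least 1 tumour and a range of 4 or more, and its 10 widest ranges were all replicate 4 alone. Bpifa2, the parotid secretory protein, read 2.26, 2.27, 2.27 and 15.81. Amy1, salivary amylase, read 5.67, 3.10, 3.07 and 16.35, which made it the fourth brightest gene of that array. Smr3a, a submaxillary gland protein, read 2.35, 2.38, 2.36 and 14.99, and Car6, the carbonic anhydrase of saliva, read 4.58, 5.11, 4.56 and 14.95. These genes are known for products of salivary glands, and replicates 1 to 3 were at or near background for each. Pip, a protein of saliva and tears, read 3.77, 3.93, 3.78 and 15.30; Dcpp3, a demilune and parotid protein, read 1.91, 1.95, 1.81 and 13.44. Over a list of 24 salivary gland genes, assembled after these values had been seen, 22 were on the array; 19 of those had a range of 1 or more, and replicate 4 was the highest in 18 of them, against 27.1% of all genes. The list mean was 3.58, 3.62 and 3.41 in replicates 1 to 3 and 9.84 in replicate 4, with 14, 16 and 17 members at background in the first 3 tumours and 3 in replicate 4. The pan-B list mean of replicate 4, described below, was 12.18, between the 11.95 of replicate 3 and the 12.77 of replicate 1. Where replicate 4 is the extreme in a result, the part of these secretory genes in it was not tested.

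**Figure D1:**
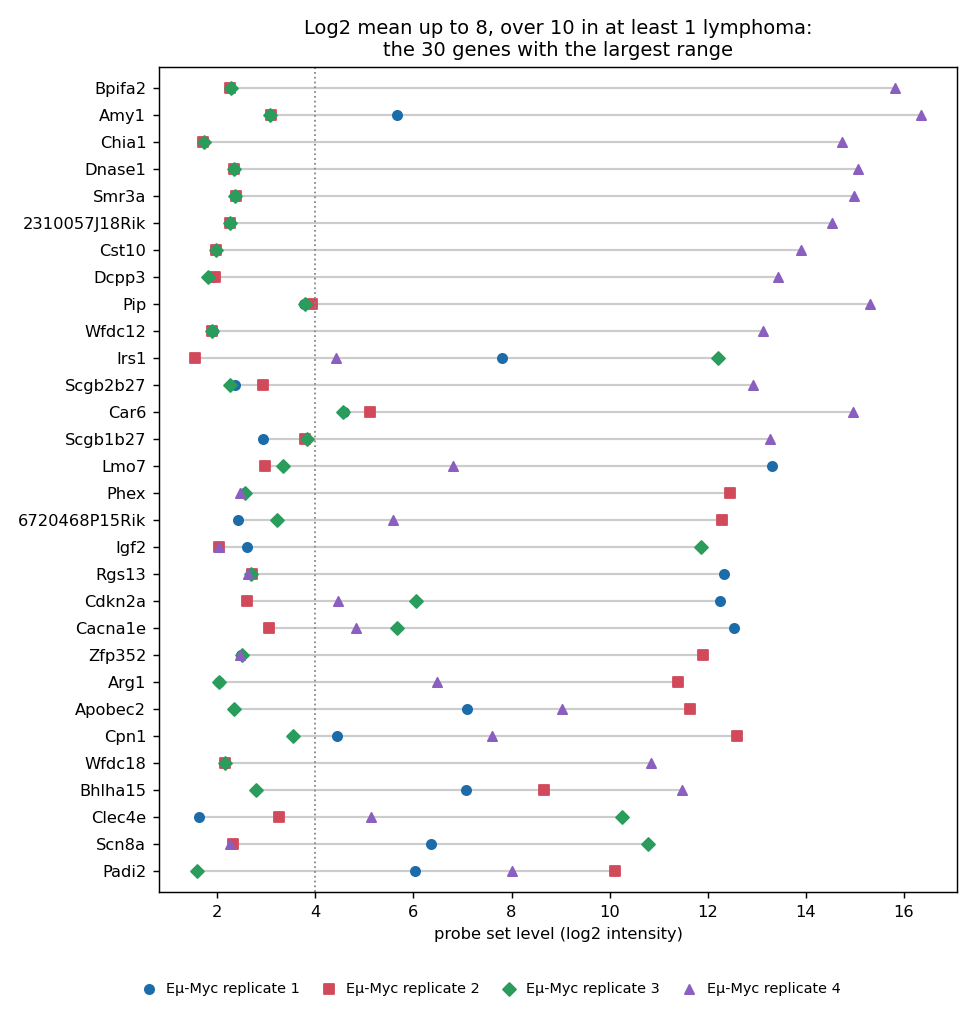
Log2 intensity (x axis) of the 30 genes with the largest range among those with a mean up to 8, a level over 10 in at least 1 tumour and a range of 4 or more. Points are the 4 tumours and the dotted line is the background limit of 4; the 10 widest ranges all have replicate 4 over 13 and the other 3 tumours under 6.

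The brightest genes of the 4 lymphomas were those of protein synthesis, and their measured levels lay close together in the 4 tumours. Of the 30 genes with the highest mean, 19 encoded ribosomal proteins, headed by Rps29 at 16.44, 16.52, 16.57 and 16.56. Rps3a1, Rpl35, Rpl13a, Rplp2, Rpl4, Rps20, Rps28, Rps24, Rps7, Rplp0, Rps18, Rps10, Rpl38, Rpl37a, Rps4x, Rpl7, Rps15 and Rps19 were the others. A further 4 genes act in or around translation: Eif5a at 16.03, 16.26, 15.95 and 16.15, the elongation factors Eef1a1 and Eef1b2, and Naca, which binds nascent chains at the ribosome. Cfl1, Actb and Tmsb10 belong to the actin cytoskeleton. Tpt1, a growth-related translationally controlled protein, Cox6a1 of the respiratory chain and Npm1, the main nucleolar chaperone, made up the rest together with Cks1b. Cks1b, a small subunit of cyclin-dependent kinases, read 15.60, 15.70, 15.62 and 15.93.

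These probe sets lie near the top of the scale, where the highest intensity was 111245 to 115814 per array. Differences between tumours can be compressed there, and how far they were was not tested. The SD of these 30 genes ran from 0.03 to 0.20 with a median of 0.06 (n = 4 tumours), and their values lay between 15.39 and 16.57. The mean of the last gene, Npm1, was 15.64, and the next gene below it stood at 15.57. Tmsb10 was lowest in replicate 4, at 15.59 against 15.95 to 16.01 in the other 3, and Cox6a1 was lowest in replicate 3, at 15.39 against 15.60 to 15.87. Taken array by array, 26 to 28 of the 30 brightest genes were these. The 30 brightest of replicate 4 also included Amy1, Bpifa2 and Igha, those of replicate 1 Hmgn1 and Son, both on chromosome 16, and those of replicate 3 Lyz1, a lysozyme, and Crip1, a LIM-domain protein. Over all 48 ribosomal protein symbols on the array, 44 exceeded a mean of 8 and 35 exceeded 14, where 262 genes lay. The median SD of the 44 was 0.06 and 0 had a range of 2 or more, against 0.382% of all genes over 14. Nearly identical pseudogenes and cross-matching probe sets could share these signals, and 9 of the 30 probe sets are of the type named _x_at.

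**Figure D2:**
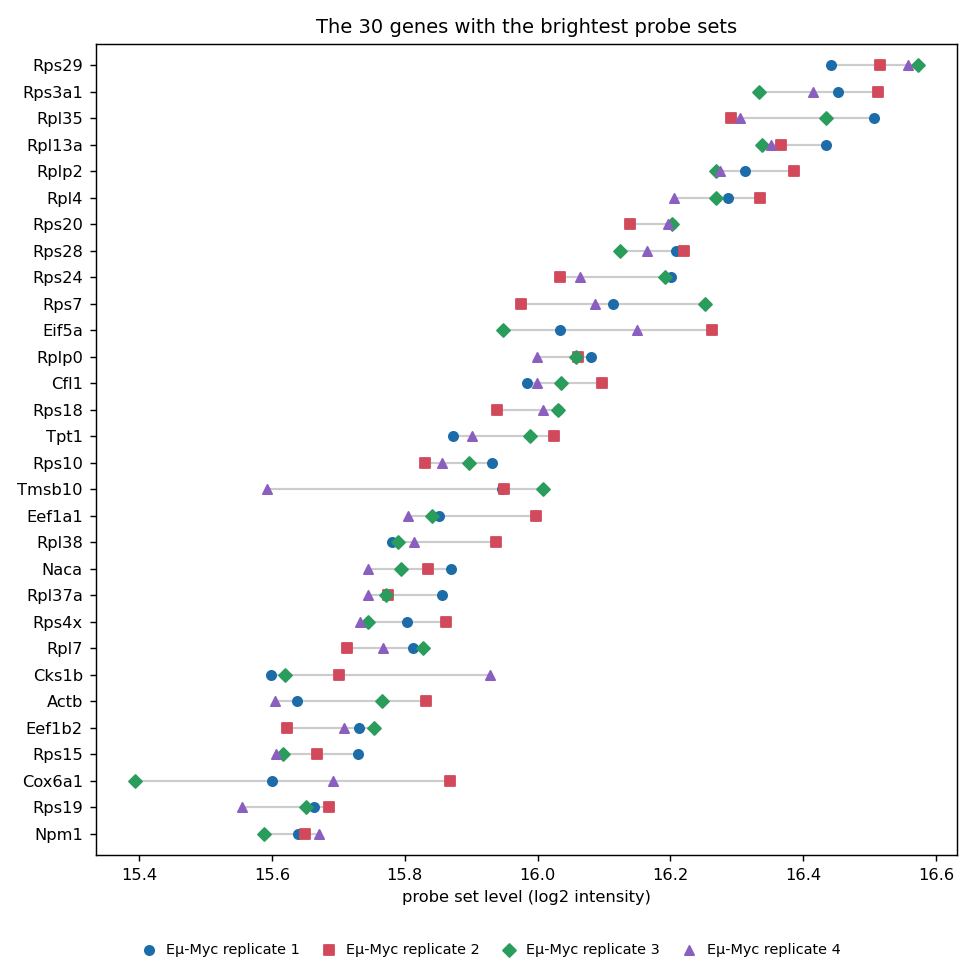
Log2 intensity (x axis) of the 30 genes with the highest mean, 1 point per tumour, with a grey line from lowest to highest. The values lie between 15.39 and 16.57, and Cox6a1 and Tmsb10 have the widest lines.

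Genes of ribosome assembly were bright and steady as well. All 20 members of the nucleolar and ribosome biogenesis list exceeded 8, and 0 had a range of 2 or more, against 8.68% of all 7216 genes. Among all genes with a mean of 12 to 14, where the list mean lay, it was 2.35%. A count of 0 in 20 thus does not set the list apart from genes as bright. Ncl, nucleolin, read 15.46, 15.54, 15.50 and 15.41, and the list mean was 12.79, 12.88, 12.64 and 12.75. The most variable members were Polr1b, a subunit of RNA polymerase I, at 8.96, 10.01, 9.74 and 9.36, and Rrp9, which processes ribosomal RNA, at 9.29, 9.51, 8.59 and 9.04. The 18 cytosolic ribosomal proteins, the 12 translation factors and the 13 housekeeping genes on the array likewise had 0 members with a range of 2 or more. Of all genes with a mean over 14, 0.382% had such a range. The ribosomal list mean was 15.32, 15.33, 15.30 and 15.25, and that of the translation factors 14.99, 14.99, 14.89 and 14.96. Myc itself read 14.21, 14.02, 13.60 and 13.84; whether its probes read the transgene, the endogenous gene or both is not known here. Its partner Max read 11.34, 11.05, 11.49 and 11.23, while Mycn was between 5.23 and 5.50 and Mycl between 2.46 and 2.89.

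Markers of the B lineage were bright in all 4 tumours, which the labels call lymphomas without naming a lineage. Each of the 11 pan-B genes on the array had a mean over 8, against 39.7% of all genes, and their list mean was 12.77, 12.58, 11.95 and 12.18. Cd79a, a signalling chain of the B-cell receptor, read 14.06, 13.96, 13.68 and 13.24, and its partner Cd79b read 14.89, 14.98, 14.37 and 14.49. Cd24a, a surface protein of early B cells, and Pou2af1, the B-cell coactivator OBF-1, were the brightest besides Cd79b, between 15.10 and 15.76 and between 14.14 and 14.51. The heavy chain constant gene Ighm read 14.40, 14.87, 14.02 and 14.11, so its signal was present in all 4. Pax5, which fixes B-cell identity, was the dimmest of the steady members at 8.58, 9.65, 8.32 and 8.91. Of the 11 members, 2 had a range of 2 or more, against 8.68% of all 7216 genes over 8. Blk, a B-cell kinase, read 11.76, 7.81, 8.67 and 6.01, and Spib, an ETS-family factor, read 12.90, 13.21, 10.55 and 12.89.

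Genes of the precursor stage divided the tumours, with replicate 2 the lowest in 6 of the 11 that had a range of 1 or more, against 25.5% of all genes; replicate 1 was the lowest in 3 and replicate 3 in 2. The precursor list mean was 8.67, 6.03, 8.44 and 8.88. Rag1, the recombinase, read 14.76, 3.05, 13.63 and 8.49, and Rag2 read 7.76, 2.45, 8.27 and 4.51. Il7r, the receptor for the growth factor of precursor B cells, read 13.08, 5.64, 12.13 and 11.20, and Lef1 read 10.38, 2.06, 11.00 and 10.76. Sox4, a factor needed for early B cells, read 14.16, 9.41, 14.03 and 13.39. For these 5 genes replicate 2 was the lowest, and for Rag1, Rag2 and Lef1 it lay under the background limit. Replicate 2 was the highest for Ms4a1, which encodes CD20, at 10.08, 14.47, 11.00 and 11.25. It was also highest for Tnfrsf13c, the BAFF receptor, at 7.58, 12.10, 10.61 and 9.64. Over the whole mature B list it did not lead: replicates 1, 2 and 3 were each the highest for 4 of the 12 genes, and the list mean was 8.83, 8.99, 8.83 and 8.28. Not every precursor gene followed: Vpreb3 was steady at 12.24, 12.23, 11.80 and 11.91, and Akap12, a scaffold protein, read 13.38, 11.82, 11.57 and 13.14. Cecr2 was instead low in replicate 3, at 10.49, 9.68, 4.41 and 9.56.

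Genes of the surrogate light chain, which pairs with the heavy chain before a light chain is made, were highest in replicate 4 on their brightest probe sets. Vpreb1 read 2.51, 2.48, 3.82 and 9.69 and Igll1 read 5.84, 6.14, 6.06 and 11.00. That Igll1 probe set is of the type named _x_at. Another Igll1 probe set did not share the pattern, at 3.19, 2.37, 2.27 and 2.23, which is background in all 4. Dntt, the terminal transferase of the pro-B stage, was at background in all 4, between 2.44 and 2.49. Of the 12 mature B genes on the array, 8 had a mean over 8, against 39.7% of all genes. Among those 8, 5 had a range of 2 or more, against 8.68% of all 7216 genes over 8. Ltb, lymphotoxin beta, was high in replicate 1, at 12.68, 7.49, 10.11 and 9.21, whereas Cd37, a B-cell tetraspanin, and Klf2, a factor of resting lymphocytes, had ranges under 2. Among the 8 germinal centre genes only Basp1 exceeded a mean of 8, at 7.78 to 9.98. Rgs13, a regulator of chemokine receptor signalling, stood at 12.32 in replicate 1 and at 2.63 to 2.70 in the other 3.

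Immunoglobulin probe sets did not read alike in the 4 tumours, among them some of variable segments. Of 46 immunoglobulin probe sets, 20 had a range of 2 or more, against 9.33% of all probe sets with 1 gene. Another 20 were at or below background in all 4, against 43.7%, and 8 had a mean over 8. The 46 include heavy chain constant genes, Igll1 and Jchain, so these counts are not of variable segments alone. Igkv8-30, a kappa variable segment, read 14.65, 14.89, 8.85 and 14.41, so replicate 3 was low. In that tumour Ighv14-2, a heavy chain variable segment, was high, at 11.58, 11.72, 15.38 and 10.68. Iglv1, the lambda probe set, read 13.63, 12.61, 3.44 and 3.60. A second Iglv1 probe set read 14.16, 2.52, 2.51 and 9.70, so both placed replicate 1 high and replicate 3 at background and disagreed on replicates 2 and 4. Some variable segments are close copies of each other, and the segment names are those of the annotation, not of the tumours' own sequences.

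Plasma cell genes were mixed, and Jchain was far higher in replicate 4, as was Igha, which is not on the plasma cell list. Igha, the IgA heavy chain, read 10.19, 7.84, 7.30 and 15.90, and Jchain, which joins IgA and IgM multimers, read 9.21, 7.19, 4.91 and 12.44. Replicate 4, with the secretory genes, was the highest for both. Igha had 2 more probe sets that also placed replicate 4 highest. Mzb1, a chaperone of antibody assembly, and Xbp1, a regulator of the secretory machinery, were over 10 in every tumour. Irf4, a factor of activated B and plasma cells, read 12.51, 10.07, 10.68 and 11.07. Tnfrsf17, the plasma cell receptor BCMA, was at background in all 4.

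Markers of macrophages, stroma and, for 3 genes, granulocytes had means over 8 beside those of B cells. No gene read from the T-cell, natural killer or red cell lists had one, against 39.7% of all 18193 genes. Of the T-cell list 0 of 11 members had a mean over 8, but 7 of the 8 with a range of 1 or more were highest in replicate 4, against 27.1% of all genes; Cd3d, a chain of the T-cell receptor complex, read 3.70, 4.01, 2.86 and 8.02. The natural killer list had 0 of 8 over 8 and the erythroid list 0 of 9, with 7 erythroid genes at background in every tumour. The erythroid list has 14 members, and those other than these 9 had no probe set of 1 gene and were not assessed. Of 16 macrophage genes 12 exceeded 8, among them Lyz2 at 13.23, 13.27, 15.13 and 14.17 and Vcam1, an adhesion molecule of tissue macrophages and stroma, at 13.22, 13.03, 13.76 and 13.07. Csf1r, the receptor for macrophage growth factor, read 9.92, 9.36, 12.33 and 10.81. Granulocyte genes were lowest in replicate 1, in 10 of the 11 that had a range of 1 or more, against 35.9% of all genes, and 3 of the 12 had a mean over 8. S100a8, a calcium-binding protein of neutrophils, read 8.79, 13.34, 13.24 and 11.80, and Ngp, a neutrophil granule protein, read 5.20, 9.79, 10.88 and 9.38. Stromal and endothelial genes were highest in replicate 4 for 9 of 12, against 27.1% of all genes, with Col3a1, a fibrillar collagen, at 13.40, 11.98, 11.57 and 14.71 and Col1a1 at 9.58, 8.53, 9.21 and 12.41. Dendritic cell genes had 0 of 8 over a mean of 8, and of 5 megakaryocyte genes Pf4 alone exceeded it, at 9.19, 6.43, 9.99 and 9.40, while Gp9, Ppbp, Gp1bb and Itga2b were at background.

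**Figure D3:**
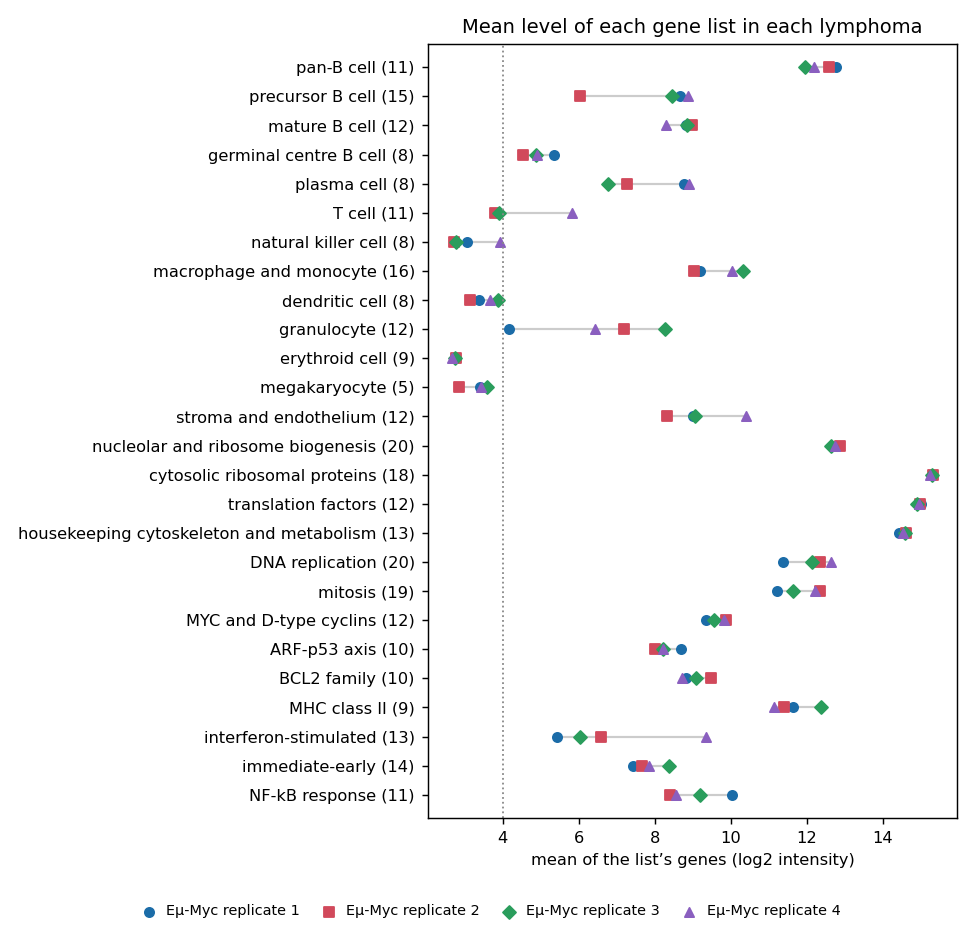
Mean log2 intensity (x axis) of each gene list in each of the 4 tumours, with the number of members on the array in brackets and the background limit of 4 dotted. Precursor B genes are low in replicate 2 at 6.03, granulocyte genes in replicate 1 at 4.18, and T-cell, stromal and interferon-stimulated genes are highest in replicate 4.

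Across the 7216 genes with a mean over 8, the usual gene differed little between tumours and a minority differed greatly. The median SD was 0.30, with 0.12 at the 10th percentile and 0.84 at the 90th, and 33.5% of the genes had a range under 0.5. A range of 2 or more, a 4-fold gap between the lowest and the highest tumour, was seen in 626 genes, or 8.68%, and 118 genes had a range of 4 or more. The count was 353 without replicate 1, 393 without replicate 3, 522 without replicate 2 and 491 without replicate 4. Of the 56 lineage markers with a mean over 8, 28 had such a range, a share of 50% beside the 8.68% of all genes. The markers were chosen with earlier results of these data known and were not matched to all genes for level. The higher share can therefore come in part from that choice. Variation fell with brightness: 13.6% of genes with a mean of 8 to 10 had a range of 2 or more, 7.02% of those from 10 to 12, 2.35% of those from 12 to 14, and 0.382% of those over 14. The compression near the top of the scale bears on this fall as well. Mean and range also come from the same 4 values, so a gene at background in some tumours has a lower mean. Xist, for example, had a mean of 8.55 with a lowest value of 2.77 and a highest of 14.40. The 1 gene in the brightest class was Crip1, at 12.43, 15.43, 15.94 and 15.30. Of the 200 genes with the largest SD, 140 had a mean between 8 and 10, and 11 had their lowest tumour under 4. The last gene inside the 200 was Ttc3, with an SD of 1.492, and the first outside was Serf1, with 1.490. At the threshold on the mean, Zfp934 lay just above 8 and Pik3r2 just below.

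**Figure D4:**
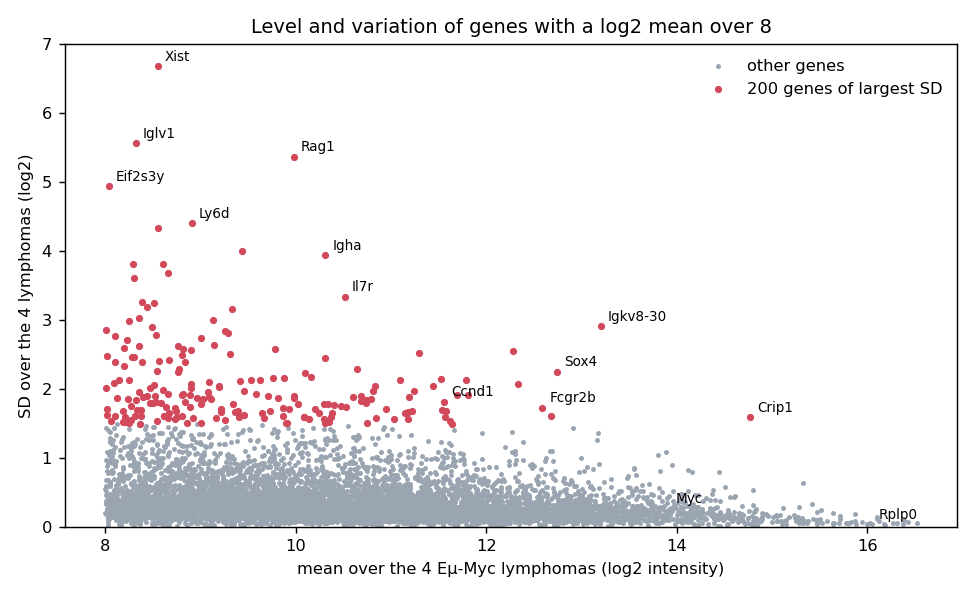
SD over the 4 tumours (y axis, log2) against mean log2 intensity (x axis) for the 7216 genes with a mean over 8; red points are the 200 genes with the largest SD. Large SDs crowd at means of 8 to 10, and Rplp0, labelled at the right, lies near 0 with an SD of 0.03.

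The most variable gene was Xist, the RNA that coats the inactive X chromosome of females. It read 2.77, 14.27, 14.40 and 2.77. The Y-linked genes showed the opposite pattern. Eif2s3y, a translation factor subunit, read 12.49, 3.76, 3.77 and 12.12, and the demethylase Kdm5d read 10.27, 2.42, 2.39 and 9.45. Replicates 2 and 3 thus had Xist and lacked Y-linked signal, and replicates 1 and 4 the reverse.

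The other genes of the 30 with the largest SD were mostly set by 1 tumour. Replicate 3 was low for Mid1, a microtubule-associated ubiquitin ligase, at 11.59, 10.40, 3.55 and 12.21. The same tumour was low for Brwd1, a chromatin reader of B-cell development, at 12.26, 10.43, 4.85 and 9.80, and for Pard6g, a cell polarity protein, at 9.35, 11.12, 5.21 and 11.33. It was high for Cxcl13, the chemokine that attracts B cells to follicles, at 6.63, 7.99, 13.48 and 8.43. Chil3, a chitinase-like protein of macrophages and neutrophils, read 3.86, 9.06, 12.59 and 7.70, with replicate 1 at background. Ly6d, a surface protein of B-lineage commitment, read 14.29, 9.91, 3.74 and 7.68, and Pim2, a kinase that works with MYC in lymphoma, read 13.43, 8.06, 7.18 and 8.49. For both of these replicate 1 was the highest by at least 4 units. Replicate 2 was highest for Cd5l, a macrophage-secreted protein, at 7.15, 12.22, 5.06 and 8.97, and lowest for Zfp386, a zinc-finger gene, at 3.73 against 9.47 to 10.86 in the other 3. It was also lowest for St3gal6, a sialyltransferase, and Slc30a4, a zinc transporter. Ggh, a lysosomal folate hydrolase, was highest in replicate 4, at 5.71, 5.22, 8.69 and 13.53. The same tumour was lowest for 4921525O09Rik, at 11.49, 8.71, 10.99 and 3.45, and for 2810025M15Rik, at 8.92, 9.20, 10.11 and 3.80. Pairs of tumours were set apart by Tmem255a and Hacd1, a fatty acid elongation enzyme, both higher in replicates 1 and 3, and by Rassf6, a RAS-association domain protein, higher in replicates 2 and 4. Lipo3, Zfp982 and 1700097N02Rik complete the 30, together with Igkv8-30, Iglv1, Igha, Jchain and the precursor genes above.

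**Figure D5:**
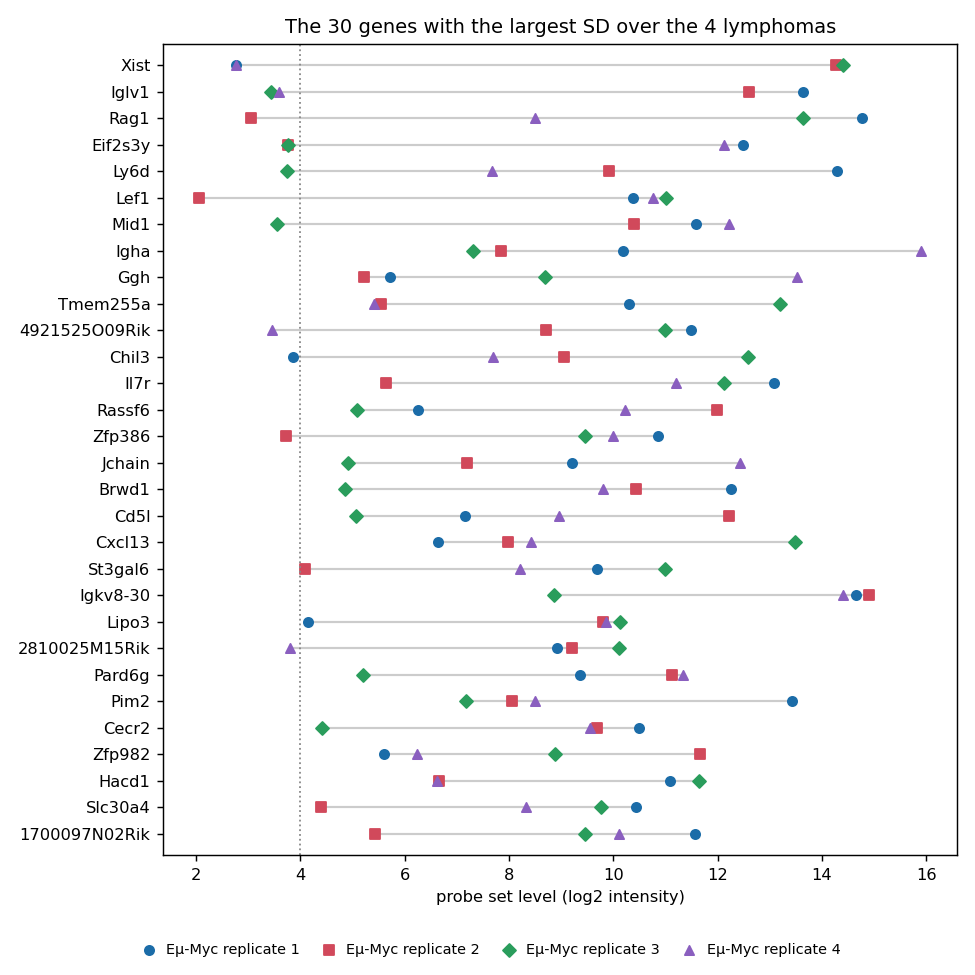
Log2 intensity (x axis) of the 30 genes with the largest SD among those with a mean over 8, 1 point per tumour, with the background limit of 4 dotted. Xist and Eif2s3y divide the tumours in opposite ways, and Rag1 spans from 3.05 in replicate 2 to 14.76 in replicate 1.

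The widest gap between the 4 sorted values of a gene tells which tumours it sets apart. In 163 of the 200 most variable genes that gap separated 1 tumour from the other 3, a share of 81.5%, against 73.1% of all 7216 genes. Replicates 1, 2, 3 and 4 were the lone tumour in 54, 27, 58 and 24 of the 200. These are 27%, 13.5%, 29% and 12%, against 26.6%, 13.8%, 22.3% and 10.5% of all 7216 genes. With high and low added together, the widest departure from the share of all genes was that of replicate 3. Counted apart, replicate 3 was high alone in 15% against 8.62% and low alone in 14% against 13.7%. Replicate 2 was low alone in 10.5% against 5.81% and high alone in 3% against 8.01%, which offset each other in the sum. Genes at least 2 units over all 3 others numbered 37, 7, 29 and 11 in replicates 1, 2, 3 and 4, and genes at least 2 units under all 3 others 34, 23, 30 and 20.

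Replicate 3 was the highest for Egr1, Etv5, Dusp6 and Spred2, of which the last 3 were picked after their values were seen. Egr1, an immediate-early transcription factor, read 7.83, 9.07, 12.64 and 8.60, and Etv5, an ETS factor induced by ERK signalling, read 6.72, 7.90, 12.20 and 7.86. Dusp6, the phosphatase that acts on ERK, read 9.81, 10.08, 13.41 and 9.65. Spred2, an inhibitor of the RAS pathway, read 5.94, 8.87, 11.41 and 8.82. In each of these 4 genes replicate 3 was over the other tumours by more than 2 units. Of the immediate-early list, 6 of the 10 genes with a range of 1 or more were highest in replicate 3, against 28.3% of all genes. This list, like the others, was chosen with earlier results of these data known. Ier2 read 7.91, 9.99, 11.25 and 10.11, but Btg2, an antiproliferative gene, was highest in replicate 1 at 12.36, 10.27, 10.93 and 11.01. Zfp36, which encodes tristetraprolin, read 10.84, 10.20, 11.01 and 10.24. Also highest in replicate 3 were Clu, a secreted chaperone, at 10.05, 10.46, 14.71 and 10.90, Mylk, a myosin kinase, at 7.10, 7.47, 12.65 and 8.40, and Pla2g7, a phospholipase of macrophages, at 6.16, 6.51, 11.83 and 8.28. The macrophage genes of this tumour were also the highest in 9 of the 15 with a range of 1 or more, and their part in these results was not tested. MHC class II genes were highest in it for 6 of the 6 with a range of 1 or more; Cd74, the invariant chain, read 14.27, 14.10, 14.54 and 13.77 and H2-Ob read 12.23, 11.08, 13.29 and 10.05.

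Replicate 1 was set apart by NF-kB response genes, by low cycle genes and by the end of chromosome 16. Of 11 NF-kB genes 9 were highest in it, against 26.9% of all genes, among them Nfkbia, the inhibitor IkB alpha, at 14.76, 13.01, 14.23 and 13.31 and Tnfaip3, the ubiquitin-editing inhibitor A20, at 10.34, 7.10, 9.66 and 6.79. Nfkbie read 12.87, 9.06, 10.81 and 9.38 and Birc3, an inhibitor of apoptosis, read 12.78, 10.91, 11.22 and 10.05. DNA replication genes were lowest in replicate 1 in 11 of the 12 with a range of 1 or more, and mitosis genes in 13 of 14, against 35.9% of all genes. Pcna, the polymerase clamp, read 14.42, 14.97, 14.70 and 15.14, Mcm5, a subunit of the replicative helicase, read 13.95, 14.88, 14.74 and 14.87, and Cdc6, which loads that helicase, read 9.91, 11.80, 11.32 and 12.27. Ube2c, which serves the anaphase-promoting complex, read 12.26, 14.25, 12.63 and 13.61, and Top2a, topoisomerase II alpha, read 13.05, 13.95, 13.40 and 13.99. These differences were mostly under 2 units: 1 replication gene and 0 mitosis genes had a range of 2 or more, against 8.68% of all 7216 genes over 8. Ccnd1, the gene of cyclin D1, was low in the same tumour, at 8.86, 12.32, 12.83 and 12.22, and Ccnd2 was high in replicates 2 and 4, at 6.99, 10.06, 6.60 and 8.77. Cdkn2a, whose products INK4A and ARF restrain the cycle and stabilise p53, had a mean under 8 and read 12.24, 2.60, 6.06 and 4.46. It was thus bright in replicate 1 and at background in replicate 2. Mtap, a methionine salvage enzyme that lies near Cdkn2a on chromosome 4, read 12.11, 8.29, 12.19 and 12.39 and was likewise lowest in replicate 2. Cdkn2b, the neighbour on the other side, was at background in all 4. Of the p53 list, Mdm2, the p53 ubiquitin ligase, was steady at 8.22 to 8.35, and Trp53inp1, a p53-induced gene, read 14.32, 12.15, 12.29 and 13.23.

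Chromosome 16 held 19 of the 200 most variable genes among its 251 with a mean over 8, a share of 7.57% against 2.77% for all chromosomes. From Ifngr2 to B230307C23Rik in gene order, 32 genes had a mean over 8 and replicate 1 was the highest in 31 of them, against 27.4% of all 7216 genes. Their median deviation from each gene's mean was 1.92, -0.32, -0.45 and 0.18. The stretch held 13 of the 200, among them Ets2, an ETS-family factor, at 13.10, 9.40, 7.77 and 10.11, and Runx1, a regulator of blood cell development, at 11.94, 8.51, 9.07 and 10.06. Cbr3, a carbonyl reductase, was the exception of the 13, with replicate 4 highest at 12.55 and replicate 1 at 9.98. Chromosome 3 followed with 20 of 365 genes and chromosome 12, which carries the heavy chain locus, with 13 of 265. Both ends of the stretch were chosen after the values had been seen, and both end genes are among the 200 with replicate 1 highest.

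Interferon-stimulated genes were highest in replicate 4, in 12 of 13, against 27.1% of all genes. Ifit2, an antiviral RNA-binding protein, read 6.52, 8.52, 9.06 and 10.38, and Gbp2, a guanylate-binding GTPase, read 9.51, 6.49, 8.85 and 10.98. Ifi47 was the exception, at 10.45, 11.27, 12.08 and 11.63. The 2 brightest members were Ifi47 and Bst2, tetherin, which read 9.41, 10.14, 9.64 and 11.22. This is again the tumour with salivary gland, T-cell and stromal genes, whose part was not tested. Of the BCL2 family, Mcl1, a survival factor, was bright in all 4 at 13.86 to 14.27, and Bid, a proapoptotic relay, at 11.46 to 12.36. Bcl2 itself read 9.09, 9.44, 8.48 and 7.15, and Bik, a proapoptotic gene, was over background in replicate 2 alone, at 8.10 against 3.12 to 3.38.

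Well-expressed probe sets that had not been used to choose the genes mostly showed the same tumours as extreme. Of the 200 most variable genes, 50 had another probe set with a mean over 8, and all 50 of these had a range of 2 or more. The same tumour was highest in 47, the same lowest in 45, and the widest gap separated the same tumours in 45. These probe sets read the same RNA of the same tumours, and 1 per gene, the brightest, was counted. Probe sets with a mean of 8 or less were left out, among them the second Iglv1 probe set, with a mean of 7.22, which disagreed on replicates 2 and 4. Xist, for example, read 2.64, 13.72, 13.95 and 2.61 on its second probe set, and Il7r read 12.67, 4.57, 11.42 and 10.40 on its own.

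The genes that varied most here also varied in tumours that had played no part in choosing them. Among the 5 Eμ-Myc;Eµ-TTP-1 lymphomas, 132 of the 200 genes had a range of 2 or more, a share of 66.0%, beside 7.59% of the 7216 genes and 5.93% of the 7016 others. The median SD in those 5 tumours was 1.19 for the 200 genes and 0.25 for the others. Of the 30 most variable genes 26 passed the same limit. The median SD of these 30 was 3.22 among the 4 tumours that chose them and 1.92 among the 5. Some had a wider range among the 5, such as Mid1 at 9.73 against 8.66, Zfp982 at 8.20 against 6.06 and Cxcl13 at 8.49 against 6.85. A range over 5 tumours is not the same measure as one over 4. The 4 exceptions were 4921525O09Rik, Zfp386, Lipo3 and Hacd1, with ranges of 1.02 to 1.57. The 200 most variable genes of each genotype shared 58, or 29% of each list.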

How the data were processed

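Lymphoma RNA was hybridised to Affymetrix MOE430 2.0 arrays. The authors deposited linear intensity values per probe set, made with GCRMA per the submitters' processing notes; its version was not given in the sources here. GCRMA corrects background by probe sequence and normalises between arrays, which narrows differences between arrays and leaves weak probe sets near fixed low values. Log2 of the deposited intensity was taken with no pseudocount. Of 45037 probe sets, 34945 had 1 gene, 932 several and 9160 none listed; 34741 matched RefSeq genes (GRCm38.p6), used for names and gene order. For each gene the probe set brightest on average over the 4 arrays was used. The mean, SD and range over 4 arrays were computed with Python 3.11.15, pandas 2.3.3 and numpy 2.4.6, and checked on simulated data. No groups were compared, since 1 group was described; genes and list means with 1 tumour far from the other 3 were picked out with Dixon's 95% critical value of 0.829. The number of arrays limits the precision. Named genes were the 30 brightest, the 30 of largest SD, 2 per split, up to 4 per list, defining markers, Myc, Ccnd1, Zfp36 and Xist, and the genes at the threshold; others were chosen after their values were seen. The members and the 27 lists (371 members, 321 on the array) were chosen with earlier results of these data known. Alternatives were other probe set choices, quantile normalisation or centring, log2(value + 16), means over 7 or 9, other measures of variation and each array left out. Scanner files and dates were not analysed here.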

Additional observations from a re-analysis of the deposited data

Results flagged for a closer look

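Of 202 genes and list means examined for 1 tumour lying far from the other 3, 31 stood out; chance alone would give about 1 in 20, or 10.1, but many of these genes were chosen for their variation. In replicate 1, Rgs13 at 12.32, B230307C23Rik at 12.16, Ret at 11.36 and Acta1 at 10.99 were far above, and Ccnd1 at 8.86, Lipo3 at 4.14, Mcm5 at 13.95 and Xbp1 at 10.76 far below. In replicate 2, Phex at 12.45 and Bik at 8.10 were above, and Lef1 at 2.06, Mtap at 8.29, Sox4 at 9.41 and the precursor B list mean at 6.03 (others 8.44 to 8.88) were below. The rule takes the gap as a share of the range, so small gaps can stand out too. Rps20 was below in replicate 2 at 16.139, against 16.197 to 16.202 in the others. In replicate 3, Dusp6 at 13.41, Igf2 at 11.86 and Cdkn2b at 3.34, still at background, were above, and Cecr2 at 4.41, Igkv8-30 at 8.85 and Spib at 10.55 below. In replicate 4, Bpifa2 at 15.81, Pip at 15.30, Smr3a at 14.99, Car6 at 14.95, Dcpp3 at 13.44, Igll1 at 11.00 and the T-cell list mean at 5.81 (others 3.80 to 3.90) were above. Mycn at 5.23 (others 5.48 to 5.50), Tmsb10 at 15.59 (others 15.95 to 16.01) and the erythroid list mean at 2.65 (others 2.75 to 2.77) were below in it. The erythroid list mean, over the 9 of 14 members that were read, was at background in all 4.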

How the results depend on the processing

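The count of genes with a range of 2 or more, 626, was 354 with the mean of all probe sets of a gene, 380 with a mean over 9, and 353 to 522 with 1 tumour left out, lowest without replicate 1 (353) and without replicate 3 (393); it stayed within 1.5 times under the other settings. Of the 200 most variable genes, 110 were shared with the mean of all probe sets, 120 with a mean over 7, 107 with a mean over 9, 113 with the median absolute deviation, and 116 to 146 with 1 tumour left out (117 without replicate 1, 116 without replicate 3); fewer or more genes entered under the changed means. The genes with 1 tumour apart, 163, became 95 with the median absolute deviation, which by construction gives little weight to 1 tumour. The genes over 8 numbered 4948 to 8214 and their median SD was 0.26 to 0.32 over the settings. Of the list means 11 moved, 6 with log2(value + 16) and 5 with the mean of probe sets. No paired analysis was possible because these results describe 1 group and come from no comparison. Signals near background limit the SD of genes whose lowest tumour is under 4, since weak values keep no reliable order.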

Other observations

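Among the 108 genes with a mean of 8 or less and a wide range, replicate 4 was the lone high tumour in 27. Replicate 1 was so in 24, replicate 3 in 18 and replicate 2 in 9. Of all genes with a mean over 8, replicates 4, 1, 3 and 2 were the lone high tumour in 6.18%, 12.3%, 8.62% and 8.01%. Those genes were not chosen for a wide range, so the shares are not like for like. The genes below are named after their values were seen. Besides the salivary genes, replicate 4 alone had Cxcl9, a chemokine induced by interferon gamma, at 10.86 against 2.60 to 4.40. Sfrp2, a secreted WNT antagonist of fibroblasts, read 3.19, 2.46, 6.54 and 10.30. Replicate 1 alone had Lmo7, a LIM-domain protein, at 13.30 against 2.98 to 6.82, Ret, a receptor kinase, at 11.36 against 3.17 to 3.77, and Acta1, skeletal muscle actin, at 10.99 against 3.03 to 3.08. Replicate 2 alone had Phex, a peptidase of phosphate balance, at 12.45 against 2.47 to 2.57 and Arg1, arginase, at 11.40 against 2.04 to 6.49. Replicate 3 alone had Igf2, a growth factor, at 11.86 against 2.03 to 2.60, and Spry2, an inhibitor of growth factor signalling, at 10.53 against 3.51 to 4.96. It also had Clec4e, a lectin receptor of macrophages, at 10.26 against 1.63 to 5.13.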
